A study of Mus musculus with 7 samples.

Results

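The POU factors are a family of homeodomain transcription factors, and 6 of their genes are described here: Pou5f1, Pou2f1, Pou2f2, Pou2f3, Pou3f1 and Pou6f1. They were taken by name and not by a cut on measured values, but with earlier results of these data known. All 6 were found among the 55484 genes of the count table. RNA-seq had been performed on mouse embryonic fibroblasts (MEFs) and mouse embryonic stem cells (mESCs), all on a C57/Bl6 background and with no treatment in the labels. The comparison of the 2 cell types addresses which TFs set the pluripotent state apart from the somatic one. The table held 4 MEF libraries, called O1 to O4 here after the endings of their column names, and 3 mESC libraries, called Y1 to Y3. The letters are not explained in the labels. The study's methods describe sorting of THY1+ cells for MEFs and of THY1-/SSEA1+/EPCAM+ cells for mESCs, stated for the chromatin assay of the same work and not for these RNA libraries. Culture passage and line were not given in the sources used here, and the labels do not say whether the libraries came from separate cultures. The study calls its transcriptional samples biological replicates but counts fewer MEF samples than the table has columns, so that the p-values are read as measuring only the spread between these libraries, which may be technical.

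A POU factor grips DNA with 2 linked parts, a POU-specific domain and a homeodomain, which read adjacent stretches of the octamer ATTTGCAT (ATGCAAAT on the other strand). Pou5f1 encodes Oct4, a core factor of pluripotency that binds together with Sox2 at a composite element in which the octamer lies beside a Sox site. Pou2f1 encodes Oct1, present in most tissues, whereas Pou2f2 encodes Oct2, known from B cells and neurons, and Pou2f3 encodes Oct11, known from epidermis and tuft cells. Pou3f1 encodes Oct6, known from Schwann cells, neural progenitors and the epiblast as it leaves naive pluripotency. Pou6f1 encodes Brn5, known mainly from the nervous system. In fibroblasts the pluripotency factor is silenced, while the broadly expressed members remain.

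The letters of the octamer and of the composite element are shown first, with the listed genes whose promoters hold them. How well each of the 6 members binds these letters was not measured here. The motif table of the study gives the composite and the Oct11 motif, with the octamer in capitals here:
OCT4-SOX2-TCF-NANOG: ATTTGCATaacaatg
Oct11: gATTTGCATa
In RefSeq promoter windows on GRCm38.p6, which run from 250 bases before to 50 bases after a gene's start, the octamer on either strand occurred in 570 of 32851 windows (1.74%). The composite, allowing up to 2 mismatches on either strand, occurred in 40 windows (0.122%), and a match to it can contain an octamer. Counted by gene, as for the lists below, the octamer occurred in 532 of 27025 genes (1.97%) and the composite in 37 (0.137%). Windows were matched for 4 of the 6 members, and none of these held either motif. Of 10 listed Oct4-Sox2 target genes with a window, 2 held the octamer (Spp1 and Zfp42) and 1 held the composite (Nanog). Of 4 listed Oct4-repressed genes with a window, Cdx2 held the octamer. The stretches are given with 10 flanking bases on each side and the match in capitals, for Nanog at chr6:122707403-122707437 on the plus strand with 2 mismatches, Spp1 at chr5:104435972-104435999 on the plus strand, Zfp42 at chr8:43307178-43307205 on the minus strand and Cdx2 at chr5:147307379-147307406 on the minus strand:
Nanog: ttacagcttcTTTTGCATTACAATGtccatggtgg
Spp1: cacatttgaaATGCAAATggaaaaagca
Zfp42: ctgaagaggcATTTGCATaactgagcaa
Cdx2: aacttttaaaATGCAAATcgtgtttctg
These are matches of letters, not sites shown to be bound, and the octamer also occurred in windows of the fibroblast gene Col3a1 and the neural gene Sox1.

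Libraries held between 6528643 and 11441278 counts, each count being 1 collapsed molecule tagged near the 3′ end of a transcript. At these depths 3 counts correspond to 0.262 to 0.46 CPM (counts per 1000000 counts of the library). The fibroblast markers summed to between 23044 and 37984 CPM in MEFs and between 204 and 252 in mESCs, and all 10 of them were lower in mESCs. All 10 pluripotency markers were higher in mESCs, with sums of 3382 to 3619 CPM against 29.2 to 34.5 in MEFs, so that the libraries carried the markers of their labels. The RNA extraction text of the labels speaks of haematopoietic stem cells of young and aged mice, and an age difference, if the letters O and Y marked one, cannot be told apart from cell type here. Of the 10 blood markers, Ptprc had at most 17 counts in any library, whereas Laptm5 had 485 to 549 counts in mESCs. The list went both ways. Cd3e had 22, 39 and 25 counts in mESCs and at most 1 in a MEF library, and Pax5 had 12, 10 and 8 against at most 1. Cd53 had 27, 7, 21 and 30 counts in MEFs and at most 3 in an mESC library. edgeR's quasi-likelihood test called 7938 of 16580 tested genes (47.9%) at a Benjamini-Hochberg adjusted p under 0.05, 22.8% being higher and 25.0% lower in mESCs. CPM values did not overlap between the 2 cell types for 55.3% of tested genes. In bulk libraries, fewer cells that express a gene and less RNA of it per cell cannot be told apart.

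Of the 6 members, 0 were lower in mESCs, against 25.0% of all tested genes, and 2 did not pass the test (Pou3f1 and Pou6f1). The other 4 (Pou5f1, Pou2f1, Pou2f2 and Pou2f3) were higher, against 22.8% of all tested genes. The same 4 had every mESC library above every MEF library in CPM, which held for 34.5% of all tested genes, and 0 had every mESC library below, which held for 20.8%. The median log2 fold change of the 6 was 1.28, against 0.037 over all tested genes. The members differed in the size of change, in level and in how far libraries of 1 cell type disagreed. Values on the log2CPM scale below are TMM-scaled with a prior count of 2.

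**Figure D1:**
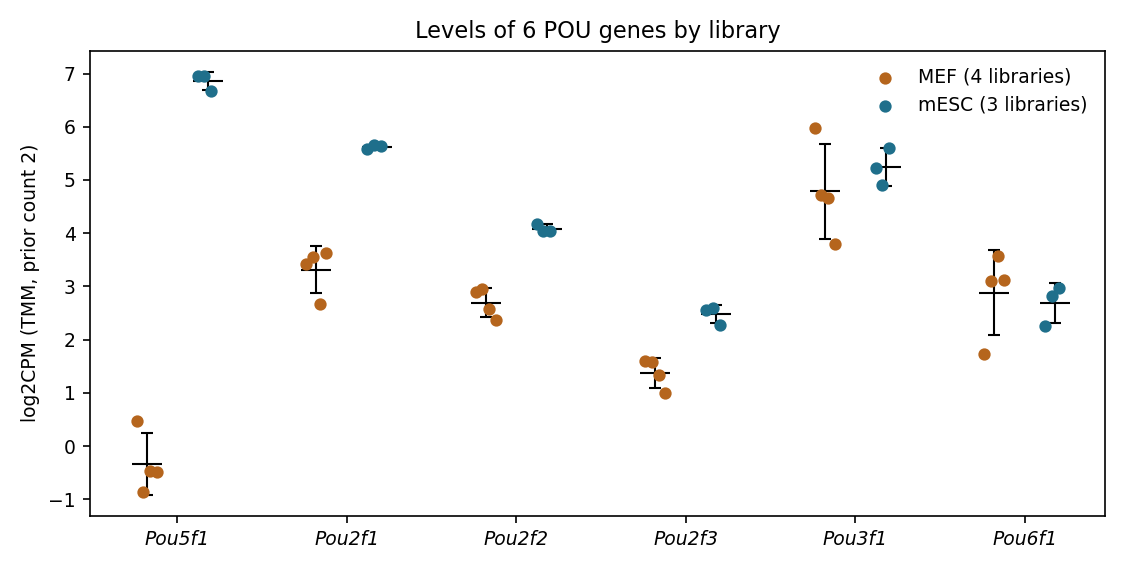
Points give log2CPM (TMM-scaled, prior count 2) of each member in each of 4 MEF and 3 mESC libraries, with bars for the mean and SD. The mESC points lie above all MEF points for Pou5f1, Pou2f1, Pou2f2 and Pou2f3, and the points of the 2 cell types interleave for Pou3f1 and Pou6f1.

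Pou5f1 (chr17:35506018-35510772, plus strand, GENCODE M21 on GRCm38) is the member on which embryonic stem cell identity depends. It had 12, 2, 4 and 3 counts in MEF libraries O1 to O4, equal to 1.05, 0.273, 0.436 and 0.46 CPM. In mESC libraries Y1 to Y3 it had 1148, 1091 and 861 counts, equal to 140.1, 135 and 115 CPM. Of the MEF libraries, 2 were at or under 3 counts and O1 was highest, and Pou5f1 moved from the 5.56th percentile of tested genes in MEFs to the 90.7th in mESCs. The log2 fold change was 7.46 (SE 0.313, 95% interval 6.76 to 8.15, edgeR adjusted p = 3.82e-08). From summed counts the ratio was 215, with an exact counting interval of 140.1 to 347. The interval, like all counting intervals here, covers counting error only. Libraries had been pooled before amplification, according to the labels. Against the MEF signal of Pou5f1 stand the sums of the whole pluripotency list in MEFs and of the whole fibroblast list in mESCs given above, with Nanog at 4.02 to 4.47 CPM in every MEF library and Col1a1 at 60.9 to 71.9 CPM in every mESC library; the part of such a low shared level in the MEF counts was not tested. Within mESCs the counts of Pou5f1 spread 12.6 times as much as counting alone would give, against a median of 5.12 over tested genes, and library Y3 was lowest. Gm19553, annotated on the opposite strand over its exons, had 0 counts in all 7 libraries.

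Pou2f1 (chr1:165865154-166002678, minus strand) encodes Oct1, a factor of snRNA and histone promoters in most cells. It had 110, 75, 51 and 76 counts in MEFs, or 9.61, 10.3, 5.56 and 11.6 CPM. In mESCs it had 441, 441 and 419 counts, or 53.8, 54.7 and 56.1 CPM. The 3 mESC libraries lay far above all MEF libraries and differed among themselves by less than counting alone would give on average (index of 0.261), whereas MEF library O3 stood below the other MEF libraries. The log2 fold change was 2.29 (SE 0.24, 95% interval 1.76 to 2.83, edgeR adjusted p = 2.23e-05), a fold of 4.9. Of its 50-base stretches, 17% also lie in other annotated genes, chiefly Cd247 on the opposite strand, which had at most 7 counts in any library.

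Pou2f2 (chr7:25087344-25179726, minus strand) encodes Oct2, the lymphoid paralogue of Oct1. It had 75, 49, 48 and 31 counts in MEFs, or 6.56, 6.7, 5.23 and 4.75 CPM, and 165, 143 and 137 counts in mESCs, or 20.1, 17.7 and 18.4 CPM. The groups did not overlap, and the spread within them was 1.62 and 0.505 times that of counting alone. The log2 fold change was 1.40 (SE 0.259, 95% interval 0.83 to 1.97, edgeR adjusted p = 0.00116), a fold of 2.64. Pou2af1, the B cell coactivator of Oct1 and Oct2, had at most 4 counts in any library. The blood list summed to 2.32 to 15.3 CPM in MEFs and 69.4 to 79.4 CPM in mESCs, of which Laptm5 made 59.2 to 68.6 CPM in mESCs and without which the sums overlapped (2.19 to 11.3 and 8.71 to 11.3 CPM), while 3 of the 10 markers were at or under 3 counts in every mESC library and 4 in every MEF library; their part in the difference of Pou2f2 was not tested.

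Pou2f3 (chr9:43123939-43210369, minus strand) encodes Oct11, the factor of tuft cells and epidermis. Of the 4 members that passed, it was the lowest in mESCs and, after Pou5f1, in MEFs, with 29, 18, 19 and 11 counts in MEFs (2.53, 2.46, 2.07 and 1.68 CPM) and 52, 51 and 39 counts in mESCs (6.35, 6.33 and 5.23 CPM). The groups did not overlap, and the spread within each was no larger than counting gives (indices of 0.691 and 0.678). The log2 fold change was 1.15 (SE 0.376, 95% interval 0.32 to 1.98, edgeR adjusted p = 0.0266). This call was lost when 1 library was left out in 4 of 7 cases: without O3 (adjusted p = 0.0538), without O4 (0.055), without Y1 (0.0788) or without Y2 (0.0832), with log2 fold changes of 1.03 to 1.12. Of 8 tuft and epidermal markers, 4 were tested. Dclk1, a microtubule kinase that marks tuft cells, was lower in mESCs (log2 fold change -6.05, from 106 ± 24.3 to 1.94 ± 0.787 CPM). The markers Trpm5, Sh2d6, Il25 and Avil were not tested. The tuft cell channel Trpm5 had 0, 0, 22 and 7 counts in MEFs and 0, 1 and 0 in mESCs. Mean CPM of Sh2d6 was 0.875 in MEFs and 0.425 in mESCs. The means went the other way for Il25 (0.0545 in MEFs and 0.289 in mESCs) and Avil (0.629 and 0.838). The epidermal genes Krt5 (adjusted p = 0.615), Krt14 (0.999) and Trp63 (0.0754) did not pass. The whole list summed to 154 to 226 CPM in MEFs and 88.5 to 109 CPM in mESCs. Dclk1 carried this direction, since without it the sums were 76 to 95.6 CPM in MEFs and 87.4 to 107 CPM in mESCs and overlapped; the part of these cells in the difference of Pou2f3 was not tested.

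Pou3f1 (chr4:124656807-124660655, plus strand, a single exon) encodes Oct6. It had 649, 171, 211 and 86 counts in MEFs, or 56.7, 23.4, 23 and 13.2 CPM, and 343, 260 and 413 counts in mESCs, or 41.9, 32.3 and 55.3 CPM. MEF library O1 was higher than all 3 mESC libraries, and the other MEF libraries were lower than all 3. The log2 fold change of 0.26 (SE 0.417, 95% interval -0.66 to 1.19) did not pass the test (edgeR adjusted p = 0.64). Without O1 the log2 fold change was 0.82 and passed (adjusted p = 0.0451), so that 1 library decided this call. MEF counts of Pou3f1 spread 112 times as much as counting alone would give, against a median of 6.73 over tested genes, and O1 held 4.31 times the CPM of O4. The neural list, fixed for cells in which Oct6 is known, summed to 270.2, 242, 199.6 and 164 CPM in O1 to O4, O1 being highest here too, and to between 88.6 and 93.1 CPM in mESCs. Nes and Tubb3 made most of the sum in MEFs, and the list went both ways: Tubb3, Map2 and Nes were lower in mESCs, Elavl3 (log2 fold change 3.20) and Sox1 (3.33) were higher, and Pax6 did not pass (0.76, adjusted p = 0.0609). The Schwann cell marker Mag was at most 1.53 CPM in any library. The part of such cells in the level of Pou3f1 was not tested.

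Pou6f1 (chr15:100575318-100599984, minus strand) encodes Brn5. It had 32, 55, 97 and 53 counts in MEFs, or 2.8, 7.52, 10.6 and 8.12 CPM, and 42, 60 and 65 counts in mESCs, or 5.13, 7.45 and 8.71 CPM. The values of the cell types overlapped throughout, and O1, the highest MEF library for Pou3f1, was the lowest for Pou6f1. The log2 fold change was -0.31 (SE 0.439, 95% interval -1.28 to 0.66, edgeR adjusted p = 0.605), an interval that still holds changes beyond 2-fold in the downward direction. Its MEF counts spread 15.9 times as much as counting alone would give, and its mESC counts 3.68 times.

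Among single tests on log2CPM, the exact two-sided permutation test over all 35 assignments of 4 and 3 libraries gave p = 0.0286, the smallest that 4 against 3 libraries allow, for Pou5f1, Pou2f1, Pou2f2 and Pou2f3. The same exact permutation test gave p = 0.457 for Pou3f1 and p = 0.714 for Pou6f1. The permutation p-values here and below are not adjusted for the number of members compared, and the edgeR adjusted p-values above are over all 16580 tested genes.

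The composition of the POU mRNA was compared next, as the share of each member in the counts of all 6 within a library. These shares are bound to sum to 100%, so that a rise of one member lowers the others. Pou5f1 held 1.32, 0.541, 0.93 and 1.15% of the counts in O1 to O4 and 52.4, 53.3 and 44.5% in Y1 to Y3 (exact permutation p = 0.0286). Pou3f1 held 71.6, 46.2, 49.1 and 33.1% in MEFs and 15.7, 12.7 and 21.4% in mESCs, without overlap (exact permutation p = 0.0571). In MEFs the largest share thus fell to Pou3f1 in every library, and in mESCs to Pou5f1. Pou2f1 held 12.1, 20.3, 11.9 and 29.2% in MEFs and 20.1, 21.6 and 21.7% in mESCs, so that its share overlapped (exact permutation p = 0.6) although its level was 4.9-fold higher in mESCs. Pou2f2, Pou2f3 and Pou6f1 each had a lower share in every mESC library than in every MEF library (exact permutation p = 0.0571 for each), with mESC shares of 6.99 to 7.53%, 2.02 to 2.49% and 1.92 to 3.36%. As shares of the counts of all 15 POU genes, those of Pou2f2 (difference -1.01 percentage points, exact permutation p = 0.257) and Pou6f1 (-7.86, exact permutation p = 0.114) overlapped between the cell types, and that of Pou2f3 did not (-0.757, exact permutation p = 0.0571). Together the 6 members made 39.8 to 79.3 CPM in MEFs and 254 to 267 CPM in mESCs. Leaving Pou5f1 aside, the other members still summed to 39.4 to 78.2 CPM in MEFs and 119 to 144 CPM in mESCs.

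**Figure D2:**
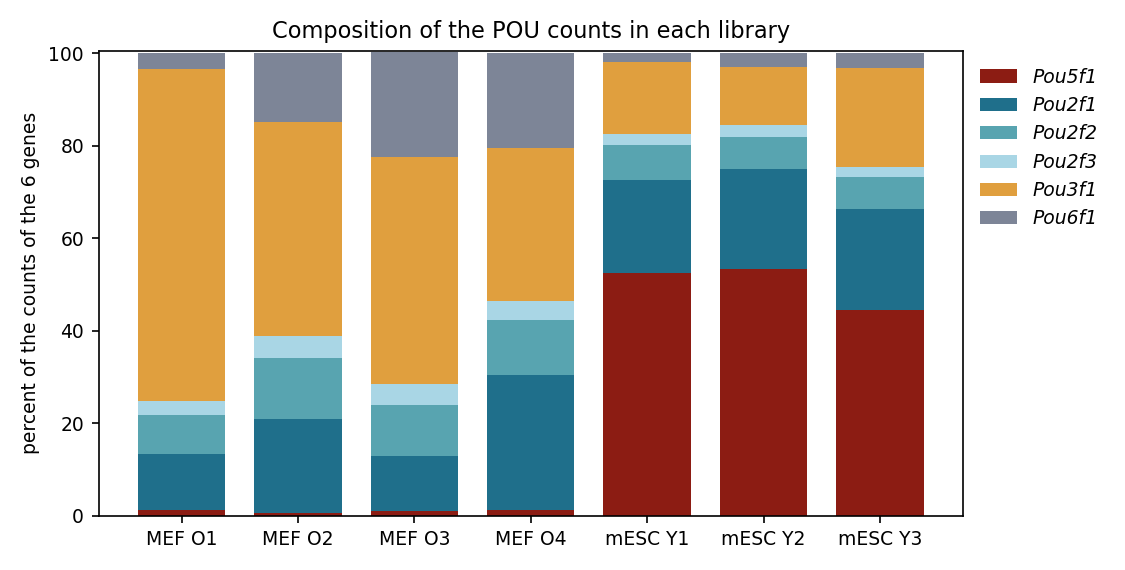
Stacked bars give the percent of the counts of the 6 members that each member held, in each of 4 MEF and 3 mESC libraries. Pou3f1 takes 33.1 to 71.6% of the bar in MEFs, and Pou5f1 takes 44.5 to 53.3% in mESCs against at most 1.32% in MEFs.

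The order of levels is given per length of the union of annotated exons, in CPM per kb, and then as plain CPM. A library tagged at the 3′ end yields about 1 count a molecule whatever the length. Plain CPM is therefore the apt scale between genes here, and division by exon length lowers genes with long exons. The 2 scales differ most for Pou2f1 with its 16.6 kb of exons. Per kb, Pou3f1 was highest in MEFs (7.55 ± 4.94, SD, n = 4) and Pou5f1 lowest (0.247 ± 0.151), and the 4 members between them (Pou6f1, Pou2f3, Pou2f2 and Pou2f1, from 1.04 down to 0.558) overlapped with their neighbours. In mESCs the order per kb was Pou5f1 (58 ± 5.84, SD, n = 3), Pou3f1 (11.2 ± 3.01), Pou2f1 (3.31 ± 0.0706), Pou2f2 (2.27 ± 0.151), Pou2f3 (1.93 ± 0.208) and Pou6f1 (1.02 ± 0.262), with no overlap between neighbours. In plain CPM the MEF order was Pou3f1, Pou2f1, Pou6f1, Pou2f2, Pou2f3 and Pou5f1, in which Pou2f1, Pou6f1 and Pou2f2 overlapped in turn. In mESCs it was Pou5f1, Pou2f1, Pou3f1, Pou2f2, Pou6f1 and Pou2f3, in which Pou2f1 overlapped with Pou3f1 and Pou6f1 with Pou2f3. In plain CPM Pou2f1 (54.9 ± 1.17, SD, n = 3) was above Pou3f1 (43.2 ± 11.6) within each of the 3 mESC libraries, the reverse of their order per kb. On both scales Pou3f1 led in MEFs and Pou5f1 in mESCs.

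The other 9 POU genes were read for comparison, and 5 of them passed the filter on low counts. Pou4f1, which encodes the sensory neuron factor Brn3a, was higher in mESCs, with 9, 4, 3 and 2 counts in MEFs and 103, 68 and 60 in mESCs (log2 fold change 3.93, SE 0.468, edgeR adjusted p = 5.55e-05). Pou3f3, which encodes the neural and kidney factor Brn1, was lower in mESCs, with 17.4, 13.5, 17.2 and 12.6 CPM in MEFs and 2.81, 2.85 and 1.21 CPM in mESCs (log2 fold change -3.00, SE 0.373, edgeR adjusted p = 7.75e-05). Pou3f3 had the second highest mean of all 15 POU genes in MEFs, above Pou2f1 in every MEF library. Within the same class, Pou3f3 was thus lower in mESCs while Pou3f1 (log2 fold change 0.26) and Pou3f2 (0.19, adjusted p = 0.728) did not pass; these differences between genes were not tested. Pou5f2 did not pass (log2 fold change 0.19, adjusted p = 0.87), with 29 counts in O1 against 1, 4 and 4 in the other MEF libraries. Pou1f1, Pou3f4, Pou4f2 and Pou4f3 were not tested, with means of at most 1.02 CPM in either cell type.

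**Figure D3:**
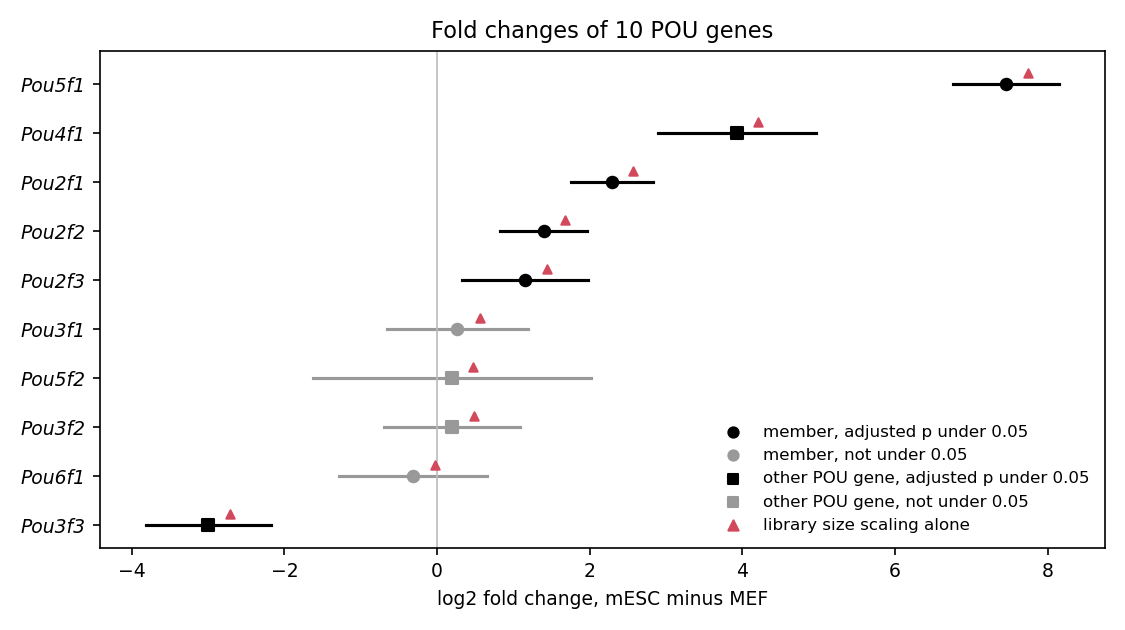
Points give the log2 fold change (mESC minus MEF) with its 95% interval for 10 of the 11 POU genes tested, circles for the members and squares for the others, grey where the adjusted p was not under 0.05, and triangles the value under scaling by library size alone. Pou5f1 lies at 7.46 and Pou3f3 at -3.00, and the triangles sit to the right of their points.

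Partners and cofactors come next, since a POU factor acts with a neighbour on DNA. Of 14 listed genes 12 were tested, and 75% of these were called, against 47.9% of all tested genes. Of the 12, 8 were higher, 1 was lower and 3 did not pass, with a median log2 fold change of 1.17. Sox2, the usual partner of Oct4, rose most, from 2.32 ± 0.663 CPM (SD, n = 4) to 610.5 ± 46.5 CPM (SD, n = 3), a log2 fold change of 7.74 (edgeR adjusted p = 1.11e-08). Sall4 (7.49), Nanog (5.90) and Sox15 (5.58), a further Sox factor that can pair with Oct4, followed on the same scale. Sox17, which pairs with Oct4 in endoderm, had 0 counts in all MEF libraries and 51, 41 and 9 counts in mESCs, and did not enter the test. Of the subunits of the snRNA activating complex, which Oct1 recruits, 3 were higher, namely Snapc3 (log2 fold change 1.34), Snapc4 (1.21, a call lost without Y2, adjusted p = 0.07) and Snapc5 (1.13), while Snapc1 (0.32, adjusted p = 0.204) did not pass. Snapc2 was the lower one (log2 fold change -0.50, adjusted p = 0.0484), with CPM values that overlapped between the cell types, and lost its call without any 1 of O1, O2, O3, O4, Y1 or Y2 (adjusted p = 0.058 to 0.171) and under scaling by library size alone (-0.22, adjusted p = 0.367). Hcfc1, a coactivator bound by Oct1 complexes, had the smallest change among those higher (0.48, adjusted p = 0.0436), a call lost without any 1 of O2, O3, O4, Y2 or Y3 (adjusted p = 0.0865 to 0.15). The general factors Tbp (0.44, adjusted p = 0.16) and Gtf2b (0.02, adjusted p = 0.936) did not pass; under library size alone Tbp (adjusted p = 0.0337) and Snapc1 (0.0295) did.

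Regulators of the Pou5f1 gene, listed together with ubiquitin ligases of the Oct4 protein, were mixed in direction. Of 15 listed genes 13 were tested, and 69.2% of these were called, against 47.9% of all tested genes. Of the 13, 5 were higher, 4 lower and 4 did not pass, with a median log2 fold change of -0.067. Activating receptors stood on one side, with Esrrb (log2 fold change 7.26) and Nr5a2 (5.87) higher, and Nr2f2, which encodes the repressive receptor COUP-TFII, on the other, falling from 173 ± 14.7 CPM (SD, n = 4) to 3.7 ± 0.339 CPM (SD, n = 3), a log2 fold change of -5.82 (edgeR adjusted p = 1.64e-08). Nr2f1, its paralogue, was lower (-1.11, adjusted p = 0.0301), a call lost without any 1 of O1, O4, Y1 or Y3 (adjusted p = 0.0628 to 0.101) and under library size alone (0.0878). Nr6a1, which encodes the repressor GCNF, was higher (1.44, adjusted p = 0.0184; 0.0508 without Y1). The de novo DNA methyltransferases moved apart, with Dnmt3b higher (4.32) and Dnmt3a lower (-0.72, adjusted p = 0.00688), the smallest change called, which did not pass under library size alone (-0.44, adjusted p = 0.0607). Zfp143, an activator, was higher (1.08) and the histone methyltransferase gene Ehmt1 lower (-0.93, adjusted p = 0.00902). Rarg (-0.21), Ehmt2 (-0.067), and the ubiquitin ligase genes Wwp2 (0.53, adjusted p = 0.0898; 0.0154 under library size alone and 0.0485 without Y3) and Itch (-0.11) did not pass. The promoter window of Pou5f1 is printed because several of these receptors read the hexamer AGGTCA, which on either strand occurs in 16.3% of all 32851 windows; the match is in capitals, at position -33 from the RefSeq start, in chr17:35505782-35506081 on the plus strand:
Pou5f1: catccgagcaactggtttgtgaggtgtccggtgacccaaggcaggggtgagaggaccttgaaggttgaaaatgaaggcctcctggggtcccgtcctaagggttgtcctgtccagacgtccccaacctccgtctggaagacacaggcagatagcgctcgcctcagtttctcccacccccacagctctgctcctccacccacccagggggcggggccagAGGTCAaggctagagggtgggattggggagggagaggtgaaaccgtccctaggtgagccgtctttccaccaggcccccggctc
The match is a description of the letters, and these data hold no measure of binding.

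Listed targets of Oct4 and Sox2 were higher in mESCs throughout, 14 of 14, against 22.8% of all tested genes, with a median log2 fold change of 6.43. Sox2 and Nanog stand in this list and among the partners, and Esrrb in this list and among the regulators. Fgf4, Utf1, Nanog, Zfp42, Tdgf1, Dppa4, Dppa5a and Esrrb are also among the pluripotency markers given above. Klf2 and Klf4 are among the naive genes given below. The count of targets is therefore not separate from the check of the labels by markers. The largest change was that of Dppa4, a chromatin-bound factor of early embryos (7.96, from 0.914 ± 0.226 to 277 ± 35.9 CPM), and the smallest that of the naive-state factor Klf2 (1.98, from 86.6 ± 24.1 to 414 ± 75.4 CPM). Of the genes with an octamer or composite match printed above, Spp1 (3.54, osteopontin) was also well expressed in MEFs at 61.6 ± 5.65 CPM, whereas Zfp42, which encodes Rex1, was at 0.254 ± 0.0729 CPM in MEFs and 47.8 ± 1.67 CPM in mESCs. Of 7 genes listed as repressed by Oct4, 3 were tested. Tfap2c (4.03) and the mesendoderm factor Eomes (2.08) were higher in mESCs, opposite to the name of the list, and Gata6 did not pass (-0.84, adjusted p = 0.0554), though it did in 4 of 13 alternatives, among them without Y1 (0.00739). The trophoblast genes Cdx2, with the octamer printed above, Hand1 and Cga had at most 3 counts in any library, and Elf5, a further trophoblast gene of the list, had 0, 0, 14 and 0 counts in MEFs and 3, 3 and 15 in mESCs.

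**Figure D4:**
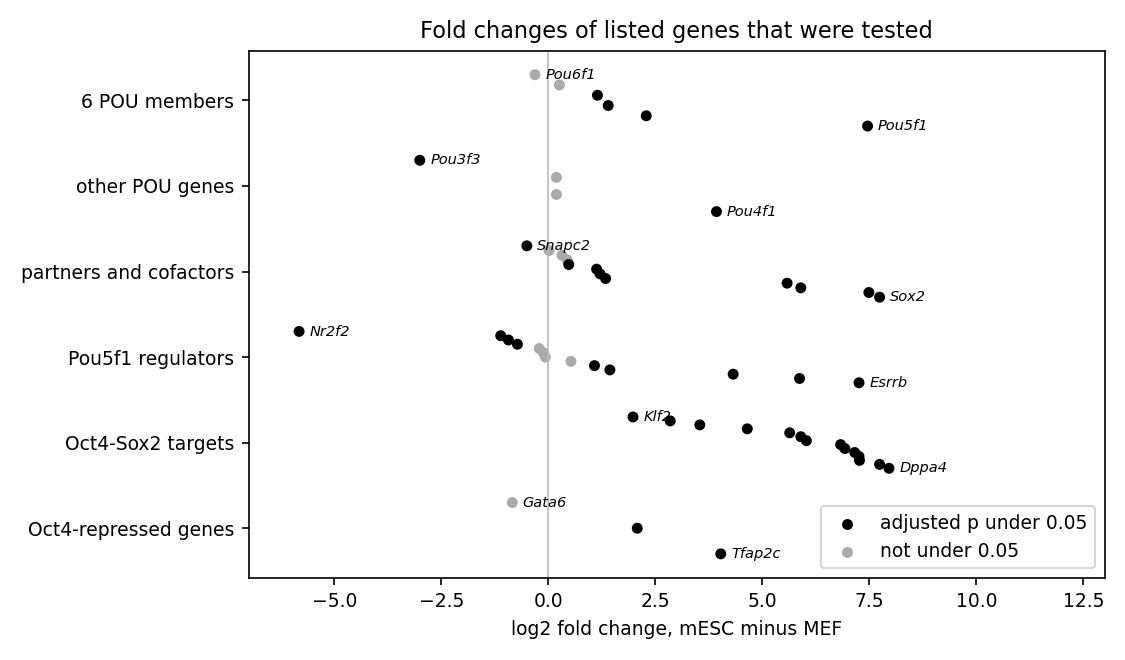
Points give the log2 fold change (mESC minus MEF) of the tested genes of 6 lists, 1 of the other POU genes left out, black where the adjusted p was under 0.05 and grey where not, with the lowest and highest gene of each list named. The 14 Oct4-Sox2 targets all lie right of 0, from Klf2 at 1.98 to Dppa4 at 7.96, while the regulators run from Nr2f2 at -5.82 to Esrrb at 7.26.

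For each member the 3 genes with the most similar pattern were sought, by the root mean square difference of log2CPM after centring each gene over the 7 libraries. Nearest to Pou5f1 were Tcl1 (0.262), Mymx (0.299) and Trap1a (0.313). Nearest to Pou2f1 were Zfp958 (0.143), Gm5844 (0.163) and Suz12 (0.167), and nearest to Pou2f2 were Eed (0.0541), Aurka (0.081) and Igf2bp1 (0.0871). Suz12 and Eed encode subunits of the Polycomb complex PRC2. Nearest to Pou2f3 were Snhg1 (0.107), Ass1 (0.112) and Mcm5 (0.12). The patterns of Pou3f1 and Pou6f1, in which O1 was the highest and the lowest MEF library without passing Dixon's outlier test (gap over range 0.576 and 0.75 on the log2CPM scale), were nearest to those of Gm8116 (0.173), the keratin gene Krt8 (0.198) and Dennd5b (0.241), and of Gm11110 (0.161), Ift172 (0.228) and Dlx6 (0.234). All of these measures rest on the same 7 libraries of 2 cell types and are given as descriptions.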

How the data were processed

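RNA-seq of 4 MEF and 3 mESC libraries was read from a table of counts per gene deposited by the authors, not normalized. According to the study's methods and the labels, 3′-tagged libraries with molecular identifiers were demultiplexed, trimmed, aligned to GRCm38 (mm10) with STAR (2.4.2a in the submitters' processing notes, another version in the methods), collapsed by identifier and counted per gene with featureCounts. The annotation release and strand setting were not given in the sources used here. Column names give the cell type but not which labelled sample a column is. Totals were 6528643 to 11441278 counts, and intervals from counts cover counting error only. Libraries of 1 cell type differed by more than sampling noise (chi-square per degree of freedom 15.6 to 31.1). Rows with symbols turned into dates (26 rows, 0.249% of counts) were kept in library sizes but not named.

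edgeR 4.0.16 (R 4.3.3) was run on all 7 libraries with filterByExpr, TMM and the quasi-likelihood F-test, without covariates, with Benjamini-Hochberg adjustment over 16580 genes and a threshold of 0.05; SEs are the coefficient over the root of F. DESeq2 1.42.0 was an alternative. Spread indices are the observed over the Poisson variance among libraries. Exact permutation tests were two-sided. Scripts were tested on simulated data. Exon lengths and coordinates came from GENCODE M21 (GRCm38), sequences from RefSeq (GRCm38.p6). The members were described in full. Of each list the text gives counts, the largest and smallest change called and any gene that did not pass; further list genes were chosen after their values were seen. Some listed genes are not reported here. Members and lists were chosen with earlier results of these data known.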

Additional observations from a re-analysis of the deposited data

How the results depend on the processing

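The count of genes that differ stayed within 1.5 times under each alternative except the test against a fold change of 2, which called 3991 genes, 2 members (Pou5f1 and Pou2f1), 4 partners and 4 regulators. Scaling by library size alone moved the median log2 fold change of all tested genes from 0.037 to 0.32 and the share of higher calls from 47.7 to 60.8%. Over 13 alternatives the log2 fold changes ran from 7.26 to 8.05 for Pou5f1, 2.11 to 2.57 for Pou2f1, 1.29 to 1.68 for Pou2f2, 1.03 to 1.44 for Pou2f3, 0.0074 to 0.82 for Pou3f1 and -0.59 to -0.027 for Pou6f1. Pou2f3 also lost its call with every gene of at least 1 count tested (adjusted p = 0.121). Counted per kb, the difference in share (mESC minus MEF) turned for Pou2f1 to -1.72 percentage points and for Pou3f1 was -51.1 (exact permutation p = 0.0286), and 3 members kept their place in MEFs and 2 in mESCs; without Y3, 4 of 6 kept it in mESCs, against 6 without another mESC library. With 1 library left out, the log2 fold change of Pou5f2 ran from -0.15 to 0.45 and was negative without O2, O3 or Y2. Without O1, the library with most of its MEF counts, Pou5f2 did not pass the filter on low counts and was not tested. The nearest genes shared 0 to 2 of 3 under Pearson correlation. No paired analysis was possible because the column names do not carry the samples' replicate numbers. Depth limits Pou5f1 in MEFs, with 2 to 12 counts a library.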

Other observations

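With Pou5f1 left out of the sum, Pou2f1 held 39 to 46.2% of the counts of the remaining 5 members in mESCs and 12 to 29.6% in MEFs, without overlap. Pou3f1 held 27.2 to 38.5% in mESCs and 33.5 to 72.5% in MEFs, with overlap. Pou2f2 held 12.8 to 15.8% in mESCs and 8.38 to 13.3% in MEFs. Over the members other than Pou5f1, mESCs thus had Pou2f1 as the largest component in every library, although Y3 held Pou3f1 at 38.5% and Pou2f1 at 39%.

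Oct6 is known from the epiblast as it leaves the naive state, and markers of both states were measured. All 8 naive genes were higher in mESCs, against 22.8% of all tested genes. Their median log2 fold change was 4.41, and they summed to 2161 to 2342 CPM in mESCs. Of 6 formative genes 5 were tested and 4 were higher, against the same 22.8%, with a median of 4.07. Lef1 did not pass (log2 fold change 0.59, edgeR adjusted p = 0.456). Dnmt3b, which was higher, also stands among the regulators of Pou5f1. The 6 formative genes summed to 119.6 to 207 CPM in mESCs and 10.3 to 15.4 CPM in MEFs. Fgf5, a defining formative marker, was at 0.854, 0.372 and 0.67 CPM in Y1 to Y3, near the level of 3 counts. Zic2 was at 16.2, 94.1 and 51.6 CPM in the same libraries, so that mESC libraries differed among themselves in this gene. Pou3f1 was at 41.9, 32.3 and 55.3 CPM, in another order than Zic2. Dnmt3b, at 73.6, 69.9 and 96.2 CPM, ran in the order of Pou3f1. Otx2 (11.2, 22.6 and 23.7 CPM), Foxd3 (15.7, 8.31 and 14.1) and Lef1 (1.95, 11.9 and 13.7) did not.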
